A study of Danio rerio with 45 samples.

Results

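The RNA-binding protein genes cirbp, ptbp1a and ptbp1b were followed through 45 RNA sequencing libraries of whole zebrafish embryos. They are 3 of the 31966 rows of the gene table and were found by their symbols. They were selected on measured values, because they lay among the lowest changes in embryos injected with a Rad21 morpholino at 4.5 and 5.3 hours post fertilization (hpf). The values of that contrast are therefore given as a description, with no test. All 3 genes passed the filter on low values in every comparison.

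The gene cirbp encodes the cold-inducible RNA-binding protein, a small protein with an RNA recognition motif and a glycine-rich tail that binds messenger RNAs in the nucleus and cytoplasm; in Xenopus, a relative has been linked to cell movements of the gastrula. The genes ptbp1a and ptbp1b encode copies of the polypyrimidine tract-binding protein, also called PTB or hnRNP I, which binds pyrimidine-rich RNA and represses the splicing of many exons. Maternal ptbp1a is known in zebrafish from the brom bones mutant, in which eggs fail to activate properly. Early zebrafish embryos live on RNA stored in the egg until their own genome is activated in the blastula, and genes of either origin can be followed by the timing of their rise.

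WT embryos, embryos injected with the Rad21 morpholino (Rad21 MO) and embryos injected with the CTCF morpholino (CTCF MO) were compared at 2.5 and 3.3 hpf, around the time the genome is activated, and at 4.5, 5.3 and 10 hpf, after it. All came from the AB/PS strain, and each of the 15 groups held 3 libraries of 100 pooled embryos. Morpholinos are synthetic antisense strands that keep a chosen RNA from being translated or spliced. The rad21 gene encodes a subunit of the cohesin ring and ctcf a DNA-binding protein that positions cohesin, so the design asks how either protein bears on the transcripts present before and after genome activation. Clutches are not named for the pools in the labels, and an injection of the WT embryos is not mentioned; the p-values therefore reflect variation among pools, which may be technical. Values are FPKM, fragments per kilobase of transcript scaled to the mapped fragments of the library; read totals are not given, and the depth is unknown.

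The 45 libraries had FPKM sums of 676000 to 1816000 and 12788 to 15833 genes at 1 FPKM or more. Libraries of the same group correlated at r of 0.967 to 0.986 across genes, and 0 pairs were identical. The sums were lower in Rad21 MO than in WT at 4.5 hpf (940200 ± 142200 against 1164000 ± 48510; SD, n = 3 each) and at 5.3 hpf (1141000 ± 115500 against 1460000 ± 76670). At 5.3 hpf they were also lower in CTCF MO (1214000 ± 33690), and at 10 hpf the group means lay between 1541000 and 1600000. Because the sums moved with the groups, the main results were also computed after bringing every library to a common sum and after quantile normalization. These are the results of the 3 genes and their relatives, the RNA-binding lists and the calls over all genes. Other single genes, marker sums and values of r are on the deposited scale unless stated. A morpholino need not lower its target RNA. At 5.3 hpf ctcf stood at 237 ± 3.39 FPKM in CTCF MO, 329 ± 4.80 FPKM in Rad21 MO and 496 ± 22.0 FPKM in WT. At 4.5 hpf rad21a stood at 100 ± 10.3 FPKM in Rad21 MO, 118 ± 12.2 FPKM in CTCF MO and 143 ± 13.6 FPKM in WT. Both target RNAs thus had means below WT in both knockdowns at these stages. At 10 hpf rad21a stood at 183 ± 10.7 FPKM in Rad21 MO and 170 ± 31.7 FPKM in WT. Titles and age labels disagree for 2 Rad21 MO libraries, which are 3.3 hpf in one label and 4.5 hpf in the other. Titles were followed, and the columns these libraries belong to are not known. In the Rad21 MO columns named 3.3 hpf, 9 markers of the enveloping layer summed to 14.4 to 27 FPKM. In those named 4.5 hpf they summed to 502 to 758 FPKM, so by this sum the columns of these stages did not overlap.

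In WT embryos the 3 genes had different starting levels and shared a steep rise between 3.3 and 4.5 hpf. The transcript of cirbp (row XLOC_016639, Zv9 chromosome 22, 18766096 to 18770361) was the most abundant of the 3. Its WT libraries read 263, 245 and 263 FPKM at 2.5 hpf, 330, 352 and 365 FPKM at 3.3 hpf, 1292, 1670 and 1345 FPKM at 4.5 hpf, 2224, 2527 and 2131 FPKM at 5.3 hpf, and 2963, 3459 and 3411 FPKM at 10 hpf. No 2 neighbouring stages overlapped, and the mean level went up 12.8-fold from 257 ± 10.6 to 3278 ± 274 FPKM (SD, n = 3). Between 2.5 and 10 hpf the mean FPKM sum of the WT libraries also went from 765600 to 1600000. Here and below, overlap of libraries is a description, given without the share of all genes that showed none.

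The transcript of ptbp1a (row XLOC_012287, Zv9 chromosome 2, 26436470 to 26448682) was close to the filter on low values before 4.5 hpf. Its WT libraries read 2.88, 1.32 and 2.88 FPKM at 2.5 hpf, 2.46, 4.68 and 4.07 FPKM at 3.3 hpf, 35.6, 67.8 and 42.4 FPKM at 4.5 hpf, 108, 127 and 87.4 FPKM at 5.3 hpf, and 93.9, 107 and 102 FPKM at 10 hpf. The libraries of 2.5 and 3.3 hpf overlapped, those of 4.5 hpf were all above them, and those of 5.3 and 10 hpf overlapped. Its paralog ptbp1b (row XLOC_002723, Zv9 chromosome 11, 14562157 to 14583552) was present at a moderate level from the start and peaked at 5.3 hpf. The WT libraries of ptbp1b read 52.0, 64.5 and 55.5 FPKM at 2.5 hpf, 52.9, 57.2 and 60.2 FPKM at 3.3 hpf, 169, 231 and 184 FPKM at 4.5 hpf, 324, 328 and 266 FPKM at 5.3 hpf, and 135, 184 and 174 FPKM at 10 hpf.

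**Figure D1:**
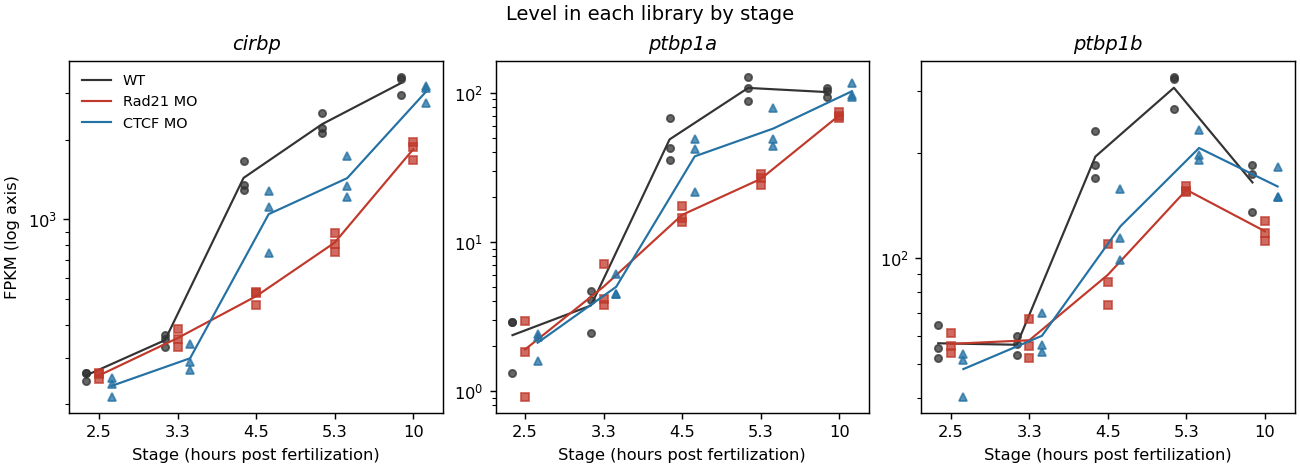
FPKM of cirbp, ptbp1a and ptbp1b in each of the 45 libraries (points) on a log axis, against stage in hours post fertilization, with stages evenly spaced and lines through the means of 3 libraries per group. All groups lie close together at 2.5 and 3.3 hpf; at 5.3 hpf WT is highest and Rad21 MO lowest for each gene, with cirbp means of 2294 FPKM in WT, 1434 FPKM in CTCF MO and 817 FPKM in Rad21 MO.

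The steps of the WT course were tested with limma on log2(FPKM + 1), a scale that understates changes of low genes, over 17410 genes. From 2.5 to 3.3 hpf 0 of the 3 genes passed an adjusted p of 0.05, where 2.06% of all genes tested were called higher and 1657 genes had an unadjusted p under 0.05, cirbp among them; cirbp had a log2 change of 0.44 (SE 0.12, adjusted p = 0.0916) with no overlap of libraries. From 3.3 to 4.5 hpf all 3 rose, beside 25.3% of all genes. The log2 changes were 2.03 for cirbp (limma adjusted p = 2.48e-08), 3.37 for ptbp1a (adjusted p = 2.71e-07) and 1.75 for ptbp1b (adjusted p = 4.27e-07). These calls held in all 13 alternatives each. There the log2 changes ranged from 0.923 to 2.1 (cirbp), 2.85 to 3.66 (ptbp1a) and 1.16 to 1.85 (ptbp1b). The median over all genes lay at 0.03, or at -0.352 with a common sum, where the calls over all genes went from 4398 higher and 3721 lower to 2228 higher and 7098 lower; quantile normalization gave 3600 and 4276. From 4.5 to 5.3 hpf all 3 rose again, beside 14.1% of all genes, by log2 changes of 0.68 for cirbp, 1.17 for ptbp1a and 0.65 for ptbp1b (adjusted p = 0.00192, 0.00647 and 0.00566). With libraries brought to a common sum this step was 0.36 for cirbp (adjusted p = 0.0648) and 0.33 for ptbp1b (adjusted p = 0.114), and the median of all genes tested lay at -0.18. Over all genes that scaling gave 865 calls higher and 3549 lower in place of 2462 and 1780, and quantile normalization 1684 and 1912.

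From 5.3 to 10 hpf the genes parted. At this step 68.9% of all genes were called in one direction or the other. The level of cirbp rose (log2 change 0.51, adjusted p = 0.00178), that of ptbp1b fell by 0.90 on the log2 scale (adjusted p = 7.31e-05), and that of ptbp1a had a log2 change of -0.08 (adjusted p = 0.805). Over the whole span from 2.5 to 10 hpf all 3 rose, beside 44.7% of all genes. The change over this span uses no library of the contrast that chose the genes, but its spread was estimated over all WT libraries. These log2 changes were 3.67 for cirbp, 4.96 for ptbp1a and 1.497 for ptbp1b. Each call held in all 13 alternatives. There the log2 changes ranged from 2.24 to 3.74 (cirbp), 4.03 to 5.44 (ptbp1a) and 0.452 to 1.63 (ptbp1b). A common sum moved the calls over all genes from 7778 higher and 5760 lower to 5117 and 8797. It moved the median of all genes from 0.273 to -0.558. Quantile normalization gave 6376 calls higher and 7227 lower. The steps that touch 4.5 or 5.3 hpf share WT libraries with the contrast that chose the genes.

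Rad21 MO embryos of 4.5 and 5.3 hpf are the ones the selection used. At 4.5 hpf their cirbp libraries read 476, 527 and 533 FPKM, against 1292 to 1670 FPKM in WT. At 5.3 hpf they read 756, 809 and 885 FPKM, against 2131 to 2527 FPKM in WT. The means were 35.7% and 35.6% of the WT mean. For ptbp1a the Rad21 MO libraries read 14.5, 17.3 and 13.6 FPKM at 4.5 hpf and 28.4, 24.1 and 26.6 FPKM at 5.3 hpf, with means at 31.2% and 24.5% of WT. For ptbp1b they read 73.9, 110 and 85.5 FPKM and then 155, 154 and 160 FPKM, with means at 46.1% and 51.2% of WT. Every Rad21 MO library lay below every WT library of its stage for each of the 3 genes. For how many of all genes this held is not given.

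As fitted differences of log2(FPKM + 1) these values were -1.48, -1.57 and -1.11 for cirbp, ptbp1a and ptbp1b at 4.5 hpf, which were the 56th, 47th and 151st lowest of 14902 genes tested. At 5.3 hpf they were -1.49, -1.97 and -0.954, the 48th, 30th and 192nd lowest of 15214. At these stages 10.1% and 9.9% of all genes were called lower; the members were picked for this contrast, so nothing is read from their place in it. With a common sum the genes called lower went from 1501 to 73 at 4.5 hpf and from 1506 to 106 at 5.3 hpf, and those called higher from 1576 to 1950 and from 1856 to 3534. The median of all genes then moved to 0.187 at 4.5 hpf and 0.254 at 5.3 hpf, and relative to it the 3 genes lay at -1.35, -1.45 and -0.986 at 4.5 hpf and -1.38, -1.87 and -0.849 at 5.3 hpf.

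**Figure D2:**
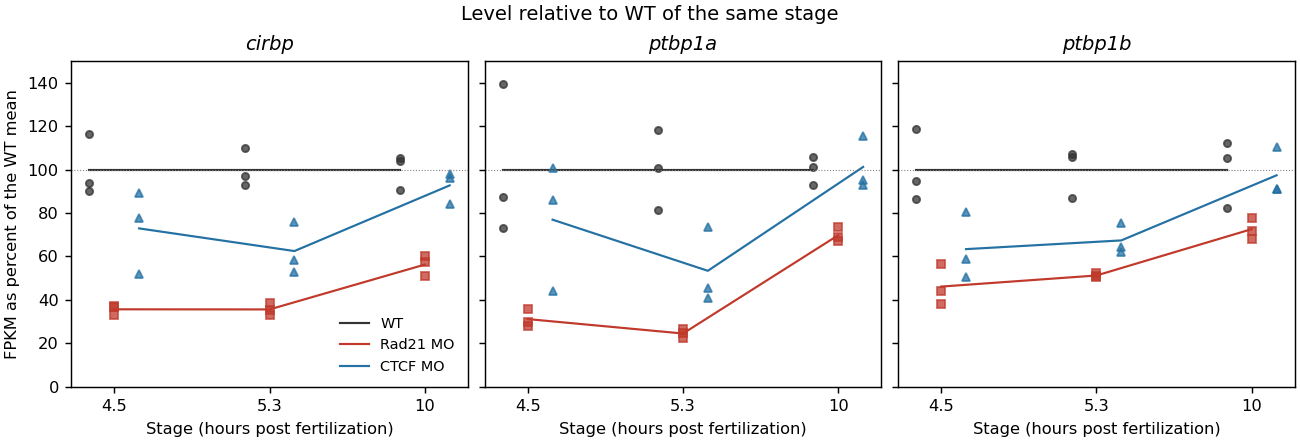
FPKM of each library (points) as a percentage of the WT mean of the same stage, for the 3 genes at 4.5, 5.3 and 10 hpf, with lines through group means. Rad21 MO lies lowest at each stage, its cirbp mean moving from 35.6% of WT at 5.3 hpf to 56.3% at 10 hpf, and the CTCF MO means are near 100% at 10 hpf.

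At 10 hpf, a stage the selection did not use, cirbp and ptbp1a were still lower in Rad21 MO than in WT. The libraries of cirbp read 1886, 1678 and 1968 FPKM in Rad21 MO and 2963, 3459 and 3411 FPKM in WT. The log2 change was -0.83 (SE 0.14, limma adjusted p = 0.0215), and the mean was 56.3% of WT. The libraries of ptbp1a read 69.4, 67.8 and 74.2 FPKM in Rad21 MO and 93.9, 107 and 102 FPKM in WT, a log2 change of -0.51 (SE 0.109, limma adjusted p = 0.0419). For ptbp1b the libraries read 118, 128 and 112 FPKM in Rad21 MO and 135, 184 and 174 FPKM in WT, also with no overlap, and the log2 change of -0.45 (SE 0.135) did not pass (limma adjusted p = 0.116). So 2 of the 3 genes were called lower, where 2.44% of all genes were. Both calls rest on thin margins, as cirbp was called in 7 of 13 alternatives and ptbp1a in 3 of 13. Leaving out any 1 of 5 libraries (WT 1 or 2, or Rad21 MO 0, 1 or 2, as the table numbers them) moved the adjusted p of cirbp to between 0.0514 and 0.102 and that of ptbp1a to between 0.106 and 0.159. With libraries brought to a common sum the log2 change of cirbp was -0.812 (adjusted p = 0.0544) and that of ptbp1a -0.492 (adjusted p = 0.19).

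Whether the Rad21 MO effect differed between 10 and 3.3 hpf was tested as an interaction in a fit of all 45 libraries. The difference itself leaves out the 2 stages of the selection, but their libraries enter the estimate of the spread. The effect on cirbp at 10 hpf minus that at 3.3 hpf was -0.853 on the log2 scale (SE 0.197, limma adjusted p = 0.0083), where 4.08% of 18943 genes were called in either direction. The same difference was -0.84 for ptbp1a (SE 0.387, adjusted p = 0.267) and -0.48 for ptbp1b (SE 0.216, adjusted p = 0.248). The call for cirbp held under all 18 alternatives run, with adjusted p between 0.00169 and 0.0315.

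CTCF MO embryos had lower levels of all 3 genes at 5.3 hpf. Their cirbp libraries read 1338, 1218 and 1746 FPKM, with a mean at 62.5% of WT. Their ptbp1a libraries read 44.2, 48.8 and 79.4 FPKM, with a mean at 53.4% of WT. Their ptbp1b libraries read 197, 190 and 231 FPKM, with a mean at 67.4% of WT. No CTCF MO library overlapped WT for any of the 3 genes, and library 2 was the highest CTCF MO library for each gene. The share of all genes without overlap is not given, while limma gave 3916 genes an unadjusted p under 0.05 at this stage.

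The log2 changes at 5.3 hpf were -0.69 for cirbp (SE 0.151, adjusted p = 0.0247), -0.92 for ptbp1a (SE 0.214, adjusted p = 0.0294) and -0.57 for ptbp1b (SE 0.111, adjusted p = 0.0168), where 3.87% of 15214 genes were called lower (589, against 772 higher). The WT libraries are the same ones that the selection used, so this comparison is not independent of it. With libraries brought to a common sum the log2 changes were -0.427 (adjusted p = 0.129), -0.66 (adjusted p = 0.0828) and -0.302 (adjusted p = 0.147), while the calls over all genes became 88 lower and 1680 higher and their median moved from 0.00 to 0.215; relative to that median they were -0.642, -0.875 and -0.517. Leaving out any 1 of WT 0, WT 1, CTCF MO 0 or CTCF MO 1 also ended all 3 calls, with adjusted p of 0.0572 to 0.0971.

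At 4.5 hpf the CTCF MO libraries were more spread. They read 747, 1278 and 1117 FPKM for cirbp, 21.4, 49.0 and 41.8 FPKM for ptbp1a, and 98.7, 157 and 114 FPKM for ptbp1b. Library 0 was the lowest for every one of the 3 genes. The libraries of cirbp and ptbp1b lay below those of WT without overlap and those of ptbp1a overlapped. The share of all genes without overlap is not given. With limma 0 of the 3 genes were called (log2 changes of -0.48, -0.40 and -0.67, adjusted p = 0.303, 0.569 and 0.206), and 0% of all 14902 genes were called lower, while 2268 genes had an unadjusted p under 0.05, cirbp and ptbp1b among them. With the spread estimated over all 45 libraries, cirbp and ptbp1b were called lower at this stage (limma adjusted p = 0.0356 and 0.00721). How many of all genes were called in that fit is not given, so nothing is read from these calls. The WT libraries of 4.5 hpf are ones that the selection used, so the CTCF MO comparison at this stage is not independent of it.

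At 10 hpf the CTCF MO means were 92.7%, 101% and 97.4% of WT for cirbp, ptbp1a and ptbp1b, and the libraries of the groups overlapped for each. The log2 changes were -0.11 (95% interval -0.424 to 0.208), 0.01 (-0.231 to 0.257) and -0.03 (-0.337 to 0.273), and none was called, where 0.0121% of all genes were called lower and 641 genes had an unadjusted p under 0.05. The test of whether the CTCF MO effect differed between 10 and 5.3 hpf gave 0.58 for cirbp (limma adjusted p = 0.0877), 0.94 for ptbp1a (adjusted p = 0.184) and 0.53 for ptbp1b (adjusted p = 0.173), so the difference did not pass for any of the 3, where 4.42% of all genes did (279 higher and 559 lower; with a common sum 39 and 468). All 3 were among 3221 genes at an unadjusted p under 0.05. Without CTCF MO library 2 of 5.3 hpf it was 0.733 for cirbp (adjusted p = 0.0217). The differences between 4.5 and 3.3 hpf and between 5.3 and 4.5 hpf did not pass either. There 0.106% and 0.0106% of all genes were called, and 1461 and 1394 had an unadjusted p under 0.05. The difference between 4.5 and 3.3 hpf was -0.932 for ptbp1b without CTCF MO library 1 of 4.5 hpf (limma adjusted p = 0.0253). Each of these differences in the CTCF MO effect uses WT libraries of 4.5 or 5.3 hpf. The selection used those libraries too, so none of the differences is independent of it.

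At 2.5 and 3.3 hpf no difference was called for these genes in either knockdown. At 2.5 hpf the levels of cirbp were 257 ± 6.90 FPKM in Rad21 MO, 234 ± 19.3 FPKM in CTCF MO and 257 ± 10.6 FPKM in WT, and at 3.3 hpf 355 ± 28.6, 298 ± 34.6 and 349 ± 17.9 FPKM. The libraries of the knockdowns overlapped those of WT at both stages for all 3 genes. At 2.5 hpf limma called 0% of 13595 genes in CTCF MO and 0% in Rad21 MO, although the unadjusted p was under 0.05 for 1140 and 544 genes. At 3.3 hpf it called 0.0569% of genes in CTCF MO and 0.171% in Rad21 MO (1566 and 1116 before adjustment). For cirbp at 3.3 hpf the 95% interval of the log2 change was -0.208 to 0.257 in Rad21 MO. In CTCF MO it was -0.464 to 0.000999. At 2.5 hpf the intervals of ptbp1a were -0.935 to 0.457 in Rad21 MO and -0.784 to 0.608 in CTCF MO. At 3.3 hpf they were -0.257 to 0.916 and -0.23 to 0.943. Those of ptbp1b were -0.272 to 0.268 and -0.514 to 0.0261 at 2.5 hpf. At 3.3 hpf they were -0.233 to 0.305 and -0.193 to 0.346. Changes within these intervals are not excluded.

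The balance between the ptbp1 copies shifted toward ptbp1a during development. Because FPKM is set per length, the copies can be compared within a library. In WT, ptbp1a made up 4.06% ± 1.785 of the summed FPKM of ptbp1a and ptbp1b at 2.5 hpf, 19.6% ± 2.76 at 4.5 hpf, 25.9% ± 1.77 at 5.3 hpf and 38.2% ± 2.35 at 10 hpf (SD, n = 3). In Rad21 MO the share was 14.6% ± 1.60 at 4.5 hpf and 14.4% ± 1.004 at 5.3 hpf, below every WT library, and 37.2% ± 2.56 at 10 hpf, overlapping WT. In CTCF MO it was 22.8% ± 4.53, 21.5% ± 3.72 and 39.0% ± 4.61 at these stages, overlapping WT at each. At 4.5 and 5.3 hpf the Rad21 MO shares follow from the values that chose the genes and are not tested.

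**Figure D3:**
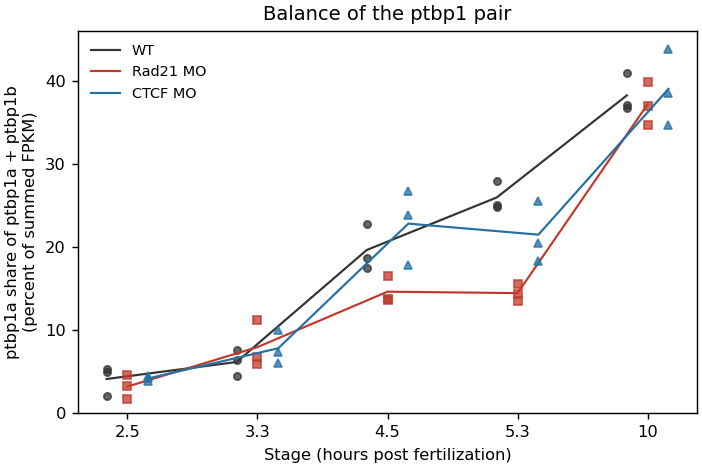
Share of ptbp1a in the summed FPKM of ptbp1a and ptbp1b, in percent, for each library (points) by stage in hours post fertilization, with stages evenly spaced and lines through group means of 3 libraries. The WT mean goes from 4.06% at 2.5 hpf to 38.2% at 10 hpf, and Rad21 MO stays at 14.4% at 5.3 hpf before reaching 37.2% at 10 hpf.

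Relatives of the 3 genes were tested next. At 4.5 and 5.3 hpf the Rad21 MO tests use the contrast that chose the 3 genes. The lists were also set with earlier results of these data known, so their counts are not independent of the selection. Besides ptbp1a and ptbp1b, 5 genes of the PTB family could be tested: ptbp2a and ptbp2b, copies of the PTB form that takes over in mammalian neurons, PTBP3, and the related hnRNP L genes hnrpl and hnrnpl2. At both 4.5 and 5.3 hpf 4 of the 5, all but PTBP3, fell in Rad21 MO, where 10.1% and 9.9% of all genes did. With a common sum 1 of 5 fell at 4.5 hpf and 3 of 5 at 5.3 hpf, and under quantile normalization 3 of 5 at each. Among all genes 73 and 106 fell at these stages with a common sum, and 705 and 959 under quantile normalization. At 10 hpf 2 of 5, ptbp2b and hnrpl, fell in Rad21 MO, where 2.44% of all genes did. At 5.3 hpf ptbp2b and hnrpl fell in CTCF MO, where 3.87% of all genes did. Both of these counts became 0 of 5 with a common sum and 1 of 5 under quantile normalization. Among all genes, 73 (Rad21 MO, 10 hpf) and 88 (CTCF MO, 5.3 hpf) fell with a common sum. Under quantile normalization 242 and 326 did. The median log2 change of the 5 was -0.763 and -0.8 in Rad21 MO at 4.5 and 5.3 hpf, beside -0.0712 and -0.0307 over all genes tested, and -0.313 in CTCF MO at 5.3 hpf.

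The low-abundance gene ptbp2b showed the deepest change at 10 hpf among them. Its libraries read 18.6, 17.4 and 17.9 FPKM in Rad21 MO and 31.4, 38.3 and 35.4 FPKM in WT, a log2 change of -0.92 (limma adjusted p = 0.00749). It passed in 12 of 13 alternatives, with adjusted p of 0.0536 where libraries were brought to a common sum. The hnrpl gene, whose protein binds CA-rich RNA, read 347, 365 and 344 FPKM in Rad21 MO and 520, 499 and 502 FPKM in WT at 10 hpf, a log2 change of -0.52 (limma adjusted p = 0.0189). That call held in 6 of 13 alternatives. In CTCF MO at 5.3 hpf the mean of ptbp2b was 55.2% of WT and that of hnrpl 70.3% of WT (limma adjusted p = 0.0238 and 0.0388); with libraries brought to a common sum neither passed (adjusted p = 0.0789 and 0.288).

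Of the relatives of cirbp, the row zgc:112425, which RefSeq gives as a synonym of cirbpa, followed a course like that of cirbp at a lower level. In WT its means went from 178 ± 3.96 FPKM at 2.5 hpf to 542 ± 73.3 FPKM at 4.5 hpf and 1764 ± 163 FPKM at 10 hpf. In Rad21 MO it stood at 319 ± 36.2 FPKM at 4.5 hpf, 58.9% of WT, and at 484 ± 10.6 FPKM at 5.3 hpf, 62.8% of WT (limma adjusted p = 0.023 and 0.00525). In CTCF MO it stood at 504 ± 74.7 FPKM at 5.3 hpf, 65.5% of WT (limma adjusted p = 0.0163). With libraries brought to a common sum these 3 calls ended, with adjusted p of 0.179, 0.149 and 0.136. The other relative with sizeable levels, rbmx, whose protein joins an RNA recognition motif to a low-complexity tail and acts in splicing, stood at 43.2% and 43.9% of WT in Rad21 MO at 4.5 and 5.3 hpf, and both falls passed in all 13 alternatives. The last relative, rbmx2, was near 1 FPKM and was not called. At 10 hpf rbmx stood at 264 ± 15.2 FPKM in Rad21 MO and 231 ± 15.03 FPKM in WT (limma adjusted p = 0.296), while cirbp stayed at 56.3% of WT.

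**Figure D4:**
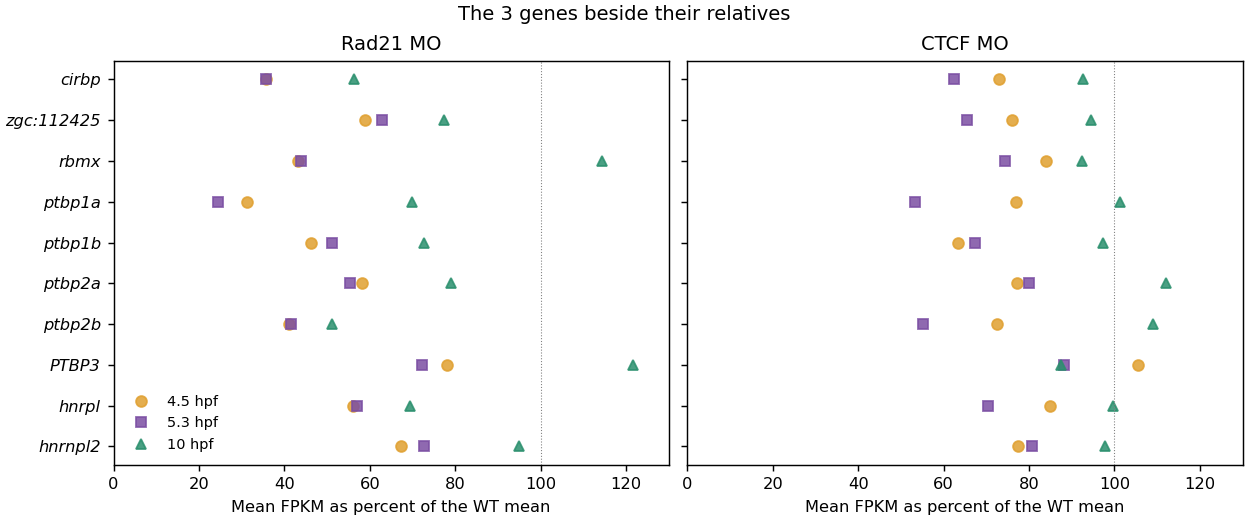
Mean FPKM (n = 3) as a percentage of the WT mean of the same stage for cirbp, ptbp1a, ptbp1b and relatives, in Rad21 MO (left) and CTCF MO (right), with 1 symbol per stage. The relative rbmx2 is not plotted; it was near 1 FPKM, at 157% of WT in Rad21 MO at 4.5 hpf and 85.5% at 5.3 hpf. At 4.5 and 5.3 hpf every plotted Rad21 MO mean is below 100%, from 24.5% for ptbp1a at 5.3 hpf up to 78.1% for PTBP3 at 4.5 hpf, and at 10 hpf rbmx and PTBP3 lie above 100%.

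Wider lists of RNA-binding genes were counted without the 3 genes. The limits given for the relatives hold for these lists too. Of 17 genes for SR proteins, which promote the use of exons, 15 fell and 0 rose in Rad21 MO at 4.5 hpf, and 13 fell at 5.3 hpf. Over all genes tested 10.1% fell and 10.6% rose at 4.5 hpf, and 9.9% fell and 12.2% rose at 5.3 hpf. On the deposited scale the counts of each list are to be read against these shares. The median log2 changes of the SR protein genes were -0.639 and -0.441. Of 29 hnRNP genes, which package nascent RNA and here include hnrpl and hnrnpl2, 10 fell at 4.5 hpf and 16 at 5.3 hpf, and 1 rose at each stage. The riser was hnrnpc, a binder of uridine tracts, with log2 changes of 0.81 and 0.70, and it also rose in CTCF MO at 5.3 hpf (0.40, limma adjusted p = 0.023). Of the splicing partners and antagonists of PTB, 11 of 24 fell at 4.5 hpf, and 13 of 23 fell and 1 rose at 5.3 hpf. Of RNA-binding regulators listed by name as maternal, 5 of 30 rose and 5 fell at 4.5 hpf, and 5 of 32 rose and 5 fell at 5.3 hpf. At 2.5 hpf 29 of these 32 passed the filter on low values. In WT from 2.5 to 10 hpf 15 of the 32 rose and 13 fell. These counts depended on scale, as did the calls over all genes. Of 14902 genes, 73 fell and 1950 rose at 4.5 hpf with a common sum. Of 15214 genes, 106 fell and 3534 rose at 5.3 hpf with that scaling. The list counts with a common sum are to be read against these. With libraries brought to a common sum, 0 of 17 SR protein genes and 0 of 29 hnRNP genes fell at 4.5 hpf, and 1 hnRNP gene rose. The median of all genes then moved to 0.187 and the list medians to -0.323 and -0.146. At 5.3 hpf 1 SR protein gene and 2 hnRNP genes fell, and 3 hnRNP genes rose. With a common sum no partner of PTB fell at either stage, while 1 rose at 4.5 hpf and 3 rose at 5.3 hpf. Of the regulators listed as maternal, 5 then rose and 0 fell at 4.5 hpf, and 11 rose and 1 fell at 5.3 hpf. Under quantile normalization 5 SR protein genes and 3 hnRNP genes fell at 4.5 hpf, and 3 and 5 at 5.3 hpf, while 1 and 2 hnRNP genes rose. Among all genes 705 then fell and 1314 rose at 4.5 hpf, and 959 fell and 1515 rose at 5.3 hpf.

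At 5.3 hpf in CTCF MO, 6 of 17 SR protein genes and 5 of 29 hnRNP genes fell, where 3.87% of all genes fell and 5.07% rose. With a common sum 2 SR protein genes and 0 hnRNP genes fell, and 2 hnRNP genes rose. Among all genes 88 then fell and 1680 rose. The SR protein gene srsf5a fell to 435 ± 37.9 FPKM against 703 ± 42.1 FPKM in WT (limma adjusted p = 0.0048). Of 23 splicing partners and antagonists of PTB, 6 fell and 1 rose there; with a common sum 1 fell and 1 rose. The gene elavl1, for the RNA-stabilizing protein HuR, fell from 385 ± 21.8 FPKM in WT to 232 ± 14.4 FPKM (limma adjusted p = 0.00274), and raver1, for a co-repressor that binds PTB, stood higher at 90.1 ± 8.17 against 58.5 ± 4.06 FPKM (limma adjusted p = 0.00804). The calls of srsf5a, elavl1 and raver1 passed in all 13 alternatives each. The list medians at this stage were -0.247 for SR proteins, -0.313 for hnRNP genes and -0.14 for partners of PTB, beside 0.00 for all genes; with a common sum they were 0.0166, -0.0493 and 0.122, beside 0.215 for all genes.

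At 10 hpf in Rad21 MO, 4 of 17 SR protein genes, 3 of 29 hnRNP genes and 1 of 25 partners and antagonists of PTB fell, where 2.44% of all genes fell. The SR protein gene srsf3a stood at 238 ± 20.8 FPKM against 386 ± 27.4 FPKM in WT (limma adjusted p = 0.0191). The hnRNP gene hnrpdl stood at 112 ± 20.97 FPKM against 264 ± 59.8 FPKM in WT (limma adjusted p = 0.0353). With a common sum 0 SR protein genes, 1 hnRNP gene and 0 partners of PTB fell, and 73 of all genes did. Of 32 regulators listed as maternal, 5 rose and 2 fell in CTCF MO at 5.3 hpf (6 and 0 with a common sum). Over all genes 5.07% rose and 3.87% fell there, and with a common sum 1680 genes rose and 88 fell. Among the regulators dazl, for a germ-cell translation activator, stood at 113 ± 27.3 FPKM against 25.0 ± 2.18 FPKM in WT (limma adjusted p = 0.000586).

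Genes whose pattern was most like that of each of the 3 were ranked by Pearson's r of log2(FPKM + 1) over the 45 libraries, among 11547 genes. Candidates had a mean of at least 5 FPKM in some group and a gene symbol, not a clone name or merged locus. The row zgc:112425 was therefore not ranked. Stage dominates such an r, and all points share their libraries and scaling, so these values are a description. The genes most like cirbp were u2af2b, for the large subunit of the 3′ splice-site factor U2AF, at r = 0.989, and then setb at 0.988 and hnrpl at 0.987. The genes most like ptbp1a were anp32a at 0.983 and hnrpl at 0.982, and cirbp itself was the fifth at 0.979. The genes most like ptbp1b were ddx39ab, for an RNA helicase of messenger RNA export, at 0.983 and the SR protein gene srsf4 at 0.979. Between the members r was 0.979 for cirbp and ptbp1a, 0.885 for cirbp and ptbp1b and 0.914 for ptbp1a and ptbp1b.

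With the mean of each stage removed, so that the differences between treatments remain, the leading genes were srsf1a for cirbp at r = 0.941, hnrpl for ptbp1a at 0.902 and smarca4, for the motor subunit of a chromatin remodeler, for ptbp1b at 0.929. In Rad21 MO at 5.3 hpf the SR protein gene srsf1a stood at 384 ± 14.9 FPKM against 589 ± 30.8 FPKM in WT, and smarca4 at 107 ± 6.56 FPKM against 152 ± 2.61 FPKM in WT. Both r and these levels include the libraries that chose the members.

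The rows next to the 3 genes on Zv9 were looked at after their values had been seen. By coordinate, without regard to strand, efna2 comes after ptbp1a. It encodes the membrane-bound guidance ligand ephrin-A2, and its locus shares its coordinates with another row, so its value is uncertain. In Rad21 MO at 10 hpf efna2 stood at 3.12 ± 0.81 FPKM against 7.97 ± 1.05 FPKM in WT, a log2 change of -1.14 (limma adjusted p = 0.0191) that passed in 8 of 13 alternatives. At 4.5 and 5.3 hpf efna2 was not called, with no alternative giving an adjusted p under 0.243. The neighbours of cirbp, midn and si:ch211-212d10.1, were not called at 4.5, 5.3 or 10 hpf or stayed at or below 2.55 FPKM, and wu:fc28f08 beside ptbp1b was not called either. On the other side of ptbp1b, EFNA2 (2 of 2) stood at 0.821 ± 0.121 FPKM in Rad21 MO and 2.48 ± 1.04 FPKM in WT at 10 hpf. Its log2 change of -0.893 was not called (limma adjusted p = 0.0995).

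In whole embryos, fewer cells of a type and less RNA per cell cannot be told apart. Whether knockdown embryos lagged in stage was not tested. At 5.3 hpf the means of cirbp, ptbp1a and ptbp1b were 1434, 57.5 and 206 FPKM in CTCF MO. In Rad21 MO they were 817, 26.4 and 157 FPKM, and in WT at 4.5 hpf 1436, 48.6 and 195 FPKM. At 4.5 hpf 7 oocyte markers summed to 201.5 to 272 FPKM (WT), 310 to 494 FPKM (CTCF MO) and 523 to 843 FPKM (Rad21 MO). Then 9 enveloping layer markers summed to 850 to 1396, 616 to 1166 and 502 to 758 FPKM in the same order. At 5.3 hpf the summed level of 7 oocyte markers was 144 to 184 FPKM in WT, 229.5 to 311 FPKM in CTCF MO and 341 to 461 FPKM in Rad21 MO. Single oocyte markers went both ways, with 4 of 7 risen and 1 fallen in CTCF MO, and 3 of 7 risen and 2 with log2 changes below 0 in Rad21 MO. Over all genes 5.07% rose and 3.87% fell in CTCF MO, and 12.2% rose and 9.9% fell in Rad21 MO. The 6 germ line markers summed to 147 to 183 FPKM in WT, 236 to 334 FPKM in CTCF MO and 255 to 281 FPKM in Rad21 MO. Of these 6, 3 rose and 0 fell in CTCF MO, and 4 rose and 1 fell in Rad21 MO. The 6 neural plate markers summed to 709 to 923 FPKM in WT, 626 to 794 FPKM in CTCF MO and 542 to 648 FPKM in Rad21 MO, with pax6a at 0 in WT and CTCF MO. Of 4 that could be tested, 3 had log2 changes below 0 in each knockdown. Of these, 0 were called in CTCF MO and 1 in Rad21 MO. Of 4 ovarian somatic markers, cyp19a1a and foxl2 were at 0 in all groups at 5.3 hpf. The 9 enveloping layer markers summed at 5.3 hpf to 2246 to 3161 FPKM in WT, 1775 to 2598 FPKM in CTCF MO and 1875 to 2256 FPKM in Rad21 MO. Of these 9, 8 had log2 changes below 0 in CTCF MO (median -0.443) and 9 in Rad21 MO (median -0.421). In each 1 of the 9 fell, where 3.87% and 9.9% of all genes did. At 10 hpf cirbp and ptbp1a were called lower in Rad21 MO on the deposited scale. At that stage 7 mesoderm and muscle markers summed to 222 to 256 FPKM in WT and 125 to 142 FPKM in Rad21 MO. Single markers went both ways, with 5 of the 7 at log2 changes below 0. In all 4 of the 7 fell and 0 rose, where 2.44% of all genes fell. The oocyte markers then summed to 10.9 to 19.5 FPKM in WT and 14.1 to 14.6 FPKM in Rad21 MO. The germ line markers summed to 14.5 to 24.5 and 9.84 to 20.9 FPKM. There the neural plate markers summed to 458 to 599 and 399 to 456 FPKM, while 9 enveloping layer markers summed to 6733 to 9641 and 9259 to 10800 FPKM, and 7 neuron markers to 24.6 to 27.3 and 25.7 to 29.8 FPKM with gap43 at 0. Of the 9 enveloping layer markers, 3 had log2 changes below 0 and 0 were called. Of the 6 neural plate markers, 5 had log2 changes below 0 and 1 was called. The 6 markers of the yolk syncytial layer, with gata6 at 0, summed to 453 to 774.5 and 452 to 755 FPKM. The part of these shifts in the levels of the 3 genes was not tested.

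The authors' deposited table of significant genes, made with Cuffdiff on its own scale, lists cirbp and ptbp1a in Rad21 MO at 4.5, 5.3 and 10 hpf and in CTCF MO at 5.3 hpf. At 10 hpf the authors' deposited table gives log2 fold changes of -0.834 for cirbp (q = 0.00122) and -0.53 for ptbp1a (q = 0.0249) in Rad21 MO. In CTCF MO at 5.3 hpf the authors' deposited table gives -0.665 for cirbp, -0.936 for ptbp1a and -0.548 for ptbp1b. For ptbp1b the authors' deposited table also lists CTCF MO at 4.5 hpf, with -0.628 (q = 0.0297). It lists ptbp1b in Rad21 MO at 4.5 and 5.3 hpf too, with -0.933 and -0.972. The Rad21 MO entries of these 2 stages belong to the contrast that chose the genes. The share of all genes that the authors' deposited table lists is not given.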

How the data were processed

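Per the labels' protocols, whole embryos were sequenced as stranded total RNA after ribosomal RNA removal. The authors deposited 1 FPKM value per gene and library. The submitters' processing notes name Zv9 (danRer7), Cuffdiff without a version, Cufflinks 2.2.0 and TopHat2 2.0.9. For genes marked significant, the authors' deposited comparisons hold log2 fold changes with their q-value and p-value. Scaling between libraries is not given in the sources used here, and FPKM depends on what else a library holds.

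From the FPKM, log2(FPKM + 1) was fitted with limma 3.58.1 in R 4.3.3, with a mean-variance trend, a two-sided moderated test and Benjamini-Hochberg adjustment over all genes with at least 3 libraries of the fit at 1 FPKM. A call is an adjusted p under 0.05. Fits within a stage used 9 libraries, fits of the WT course 15 and interactions 45. The fit was tested on simulated data. Figures used Python 3.11.15, pandas 2.3.3 and matplotlib 3.10.9. Named genes are the members, the PTB family and cirbp relatives in full, up to 4 genes of each other list with the smallest adjusted p, and the 5 most alike in pattern. Current RefSeq synonyms (assembly GRCz12tu) matched older symbols. The members and lists were chosen with earlier results of these data known. Columns carry numbers, not the replicate letters of the titles. No sequences are shown.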

Additional observations from a re-analysis of the deposited data

Results flagged for a closer look

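The Rad21 MO effect on cirbp differed between stages that the selection did not use. The effect at 10 hpf minus that at 3.3 hpf was -0.853 on the log2 scale (SE 0.197, limma interaction over 45 libraries, adjusted p = 0.0083). At 3.3 hpf the libraries of Rad21 MO and WT overlapped, and at 10 hpf all 3 Rad21 MO libraries lay below all 3 WT libraries. This is a description, as the share of all genes without overlap is not given. At 10 hpf limma gave 3067 of 16485 genes an unadjusted p under 0.05. The same difference did not pass for ptbp1a (-0.84, adjusted p = 0.267) or ptbp1b (-0.48, adjusted p = 0.248), and whether the genes differ from each other in it was not tested.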

How the results depend on the processing

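For the 3 genes, 57 results were recomputed under 797 alternatives; 714 kept their direction and side of the threshold, 37 lost a call, 6 gained one, 31 changed sign and 9 of the untested values moved by more than the spread of the libraries. The causes were not tested. No paired analysis was possible because the table's columns carry numbers that cannot be matched to the replicate letters of the titles. With a filter at 5 FPKM ptbp1a could not be tested at 2.5 and 3.3 hpf. FPKM give no depth, so low values of ptbp1a before 4.5 hpf have unknown counting error.

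With libraries brought to a common sum, CTCF MO at 5.3 hpf gave -0.427 for cirbp, -0.66 for ptbp1a and -0.302 for ptbp1b, and quantile normalization gave -0.365 for cirbp and -0.302 for ptbp1b (adjusted p = 0.168 and 0.0627), none called; ptbp1a without the trend was -0.925 (adjusted p = 0.0522). With a common sum, Rad21 MO at 10 hpf gave -0.812 for cirbp and -0.492 for ptbp1a. There ptbp1a lost its call with no filter, with the fit on all 45 libraries and without the trend (-0.511 each; adjusted p = 0.0532, 0.274 and 0.082) and under quantile normalization (-0.414, adjusted p = 0.0863). The fit on all 45 libraries called CTCF MO at 4.5 hpf for cirbp (-0.482) and ptbp1b (-0.668), with the share of all genes called not given. In WT from 4.5 to 5.3 hpf the calls of cirbp (0.355) and ptbp1b (0.328; quantile 0.27, adjusted p = 0.117) ended with a common sum, and from 2.5 to 3.3 hpf cirbp gained one under quantile normalization (0.388, adjusted p = 0.0495). The untested Rad21 MO values moved with a common sum to -1.16 (cirbp) and -0.799 (ptbp1b) at 4.5 hpf and -1.13, -0.595 and -1.61 (cirbp, ptbp1b, ptbp1a) at 5.3 hpf, and under quantile normalization to -0.858, -0.791, -1.04 and -0.643 (cirbp and ptbp1b at 4.5, then at 5.3 hpf).

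Uncalled values changed sign with a common sum for ptbp1b in CTCF MO at 10 hpf (0.0187), for cirbp and ptbp1b in Rad21 MO at 2.5 hpf (0.138 and 0.136), for the cirbp CTCF MO effect at 5.3 minus 4.5 hpf (0.00339) and for PTBP3 in CTCF MO at 5.3 hpf (0.00387). Under quantile normalization they did so for cirbp in Rad21 MO at 3.3 hpf (-0.0147), efna2 (-0.00102) in Rad21 MO at 5.3 hpf and hnrnpl2 (0.123) in Rad21 MO at 10 hpf; the called fall of srsf5a in Rad21 MO at 5.3 hpf turned to 0.0157.

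Leaving out 1 library at a time gave, for CTCF MO, these ranges: at 5.3 hpf -0.842 to -0.582 (cirbp), -1.18 to -0.763 (ptbp1a), -0.663 to -0.51 (ptbp1b), -0.431 to 0.117 (PTBP3) and -0.0169 to 0.386 (efna2); at 2.5 hpf -0.334 to 0.0365 (ptbp1a); at 3.3 hpf -0.0319 to 0.146 (ptbp1b); at 10 hpf -0.0855 to 0.0711 (ptbp1a) and -0.165 to 0.0562 (ptbp1b). For Rad21 MO they were -0.9 to -0.763 (cirbp), -0.562 to -0.47 (ptbp1a), -0.581 to -0.361 (ptbp1b, called without WT 0, adjusted p = 0.0418) and -0.0273 to 0.0882 (raver1) at 10 hpf; -0.0362 to 0.0209 (cirbp), -0.494 to 0.0283 (ptbp1a) and -0.0686 to 0.0849 (ptbp1b) at 2.5 hpf; -0.036 to 0.0792 (cirbp) and -0.0653 to 0.116 (ptbp1b) at 3.3 hpf; and -0.0708 to 0.248 (efna2) at 5.3 hpf. In WT they were -0.0767 to 0.0769 (ptbp1b, 2.5 to 3.3 hpf) and -0.218 to 0.051 (ptbp1a, 5.3 to 10 hpf). For differences of the CTCF MO effect they were -0.932 to -0.599 (ptbp1b, 4.5 minus 3.3 hpf), -0.0437 to 0.289 (ptbp1b, 5.3 minus 4.5 hpf) and 0.474 to 0.733 (cirbp, 10 minus 5.3 hpf).

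Over all genes, calls in either direction went from 3077 to 2023 with a common sum and 2019 under quantile normalization in Rad21 MO at 4.5 hpf, from 532 to 89 and 326 at 10 hpf, from 24 to 9 and 13 at 3.3 hpf, and for the Rad21 MO effect at 10 minus 3.3 hpf from 772 to 339 and 630. For CTCF MO at 5.3 hpf 589 of 1361 calls were lower, against 88 of 1768 with a common sum.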
